A study of Mus musculus with 9 samples.

Results

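The genes described here act in the exchange of signals between nephron progenitors and the ureteric bud (UB), and were taken by name. They are *Gdnf*, *Gfra1*, *Clcf1*, *Gas1*, *Itga8*, *Npnt*, *Robo2*, *Slit2* and *Slit3*. All 9 were found among the 26858 genes of the count table, and all 9 were among the 14990 genes with enough reads to be tested. RNA-seq was performed on SIX2 progenitors sorted for eGFP from kidneys at embryonic day 18.5. The 4 control libraries came from *Six2-Qpc*+/- mice, labeled heterozygous, and the 5 mutant libraries from *Six2-Qpc*-/- mice, labeled knockout. *Qpc* is the *Uqcrq* gene, which encodes a ubiquinone-binding subunit of mitochondrial complex III, and mutants carried the floxed allele on both chromosomes. All animals carried a bacterial artificial chromosome transgene in which the *Six2* promoter drives Cre fused to eGFP, so the control cells had lost 1 *Qpc* allele as well, and cells without Cre were not sequenced. Whether each library came from a single embryo or a pool is not given in the sources used here, so the tests measure only the spread between these libraries, which may be partly technical.

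GDNF, secreted by cap mesenchyme, binds the co-receptor GFRA1 and the receptor tyrosine kinase RET on the UB and drives the outgrowth and branching of the bud. Mesenchyme also sends other signals to the bud, among them the cytokine CLCF1, whereas SLIT ligands and their receptor ROBO2 restrict where the bud forms. In the opposite direction, nephronectin (NPNT) from the bud binds integrin alpha 8 (ITGA8) on the mesenchyme, an interaction needed for *Gdnf* expression, and GAS1 is a membrane protein of nephron progenitors. Transcription factors of the cap mesenchyme such as EYA1, SALL1, PAX2 and the HOX11 group act upstream of *Gdnf*.

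Library totals ranged from 22571729 to 23691130 counts in control and from 21040536 to 23986458 in mutant cells. Levels are given as CPM, the reads of a gene per 1000000 reads after normalization. Values by library are always listed in the order of control replicates 71, 72, 73 and 76 and of mutant replicates 74, 75, 77, 78 and 79. The targeted gene *Uqcrq* was at 94.1 ± 13.3 CPM in control (SD, n = 4) and at 21.3 ± 4.45 CPM in mutant cells (SD, n = 5). Of 8 UB markers, *Ret*, *Wnt9b* and *Aqp2* had at most 13 counts in any library and *Gata3* at most 23, *Calb1* had 0 to 216, and *Hoxb7*, *Krt19* and *Wnt11* had 458 to 1086, 38 to 444 and 85 to 437. The 8 UB markers together were at 32.0 to 78.2 CPM, whereas the summed level of 8 progenitor markers was between 2040 and 2540 CPM in every library. Of these 8 progenitor markers, 0 rose and 1, *Tmem100*, fell in mutant cells, with means of 45.8 and 23.2 CPM (adjusted p = 0.0124, edgeR). Summed stromal markers (10 genes) were at 137 to 219 CPM in control and 271 to 824 CPM in mutant libraries, with 824 CPM in mutant replicate 75 and 542 CPM in mutant replicate 74. Summed myeloid markers (5 genes) were at 2.26 to 8.65 CPM in control and 7.97 to 92.8 CPM in mutant libraries. The 7 early nephron markers summed to 337 to 667 CPM in control and 252 to 361 CPM in mutant libraries. Control replicate 76 stood apart from the other controls, with 337 CPM of early nephron markers against at least 520 CPM, and 2510 CPM of progenitor markers against at most 2130 CPM. In bulk RNA from sorted cells, fewer cells of a type and less RNA per cell cannot be told apart, and the part of these markers in the results was not tested. The study itself names differentiating control cells with low eGFP as a limit of this sort.

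Among the 9 genes, *Slit2* fell in mutant cells and the other 8 did not pass the test (edgeR's quasi-likelihood test with Benjamini-Hochberg adjustment over 14990 genes, adjusted p-value under 0.05). *Npnt* and *Slit3* had lower fitted values and *Robo2* a higher one. *Gfra1* and *Itga8* had nearly equal means in both genotypes. The 1 gene of 9 compares with 14.8% of all genes tested, made up of 7.82% with higher and 7.02% with lower levels in mutants, so the share called was near the background. Unadjusted p-values were under 0.05 for 4 of the 9 genes, 3 with lower and 1 with higher fitted values, against 31.4% of all genes. The median log2 fold change of the 9 genes was -0.13, and that of all genes was -0.01. Control and mutant libraries overlapped for all 9 genes, whereas they did not overlap for 15.2% of all genes, 7.5% higher and 7.73% lower in mutant cells. Without control replicate 76, *Robo2*, *Slit2* and *Slit3* no longer overlapped, against 22.9% of all genes.

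**Figure D1:**
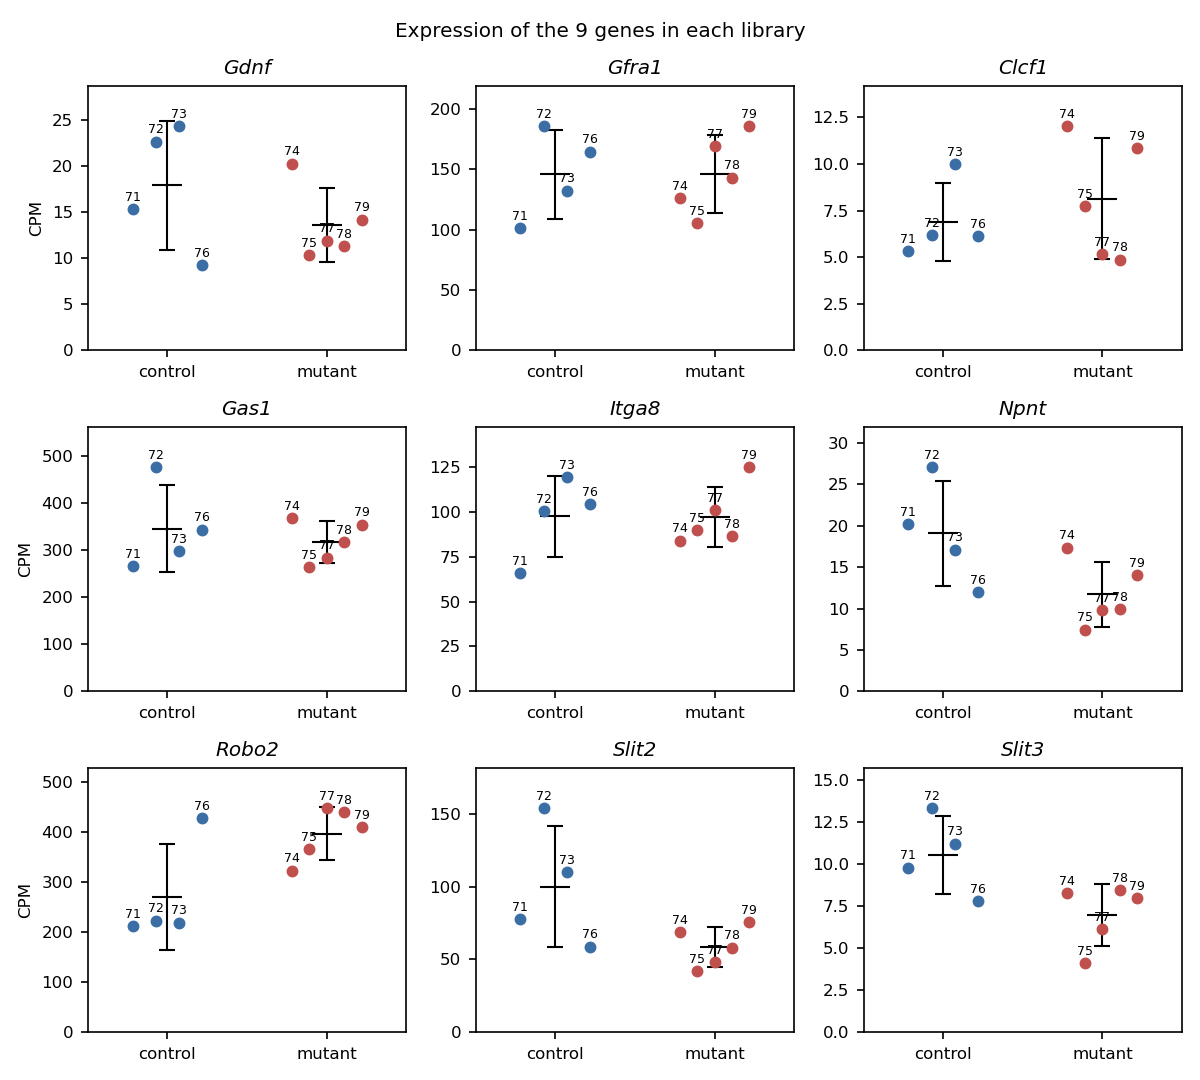
CPM (y axis, linear, starting at 0) of each of the 9 genes in the 4 control (blue) and 5 mutant (red) libraries, with replicate numbers beside the points and the mean ± SD in black. Control replicate 76 lies among or near the mutant libraries for *Gdnf*, *Npnt*, *Robo2*, *Slit2* and *Slit3*, with *Robo2* at 428 CPM against 211 to 223 CPM in the other controls.

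*Gdnf* (ENSMUSG00000022144, GRCm38, chromosome 15, 7811011 to 7837575) encodes the ligand itself. It was at 15.3, 22.6, 24.3 and 9.24 CPM in control libraries. The mutant libraries had 20.2, 10.3, 11.9, 11.3 and 14.2 CPM. Every mutant library lay within the control range, control replicate 76 was the lowest of all 9 libraries, and mutant replicate 74 was the highest of its genotype. The means were 17.9 ± 6.94 CPM (SD, n = 4) and 13.6 ± 3.98 CPM (SD, n = 5). The log2 fold change of mutant against control was -0.40 ± 0.27 (SE, adjusted p = 0.352 in edgeR), with a 95% interval from -0.99 to 0.20. *Gdnf* was called in 1 of 16 alternatives, in edgeR without control replicate 76 and mutant replicate 74, at -0.78 (adjusted p = 0.0164). These were its lowest control and its highest mutant library, so leaving both out widens the difference by construction. In that setting 23.7% of all genes were called, against 14.8% with all libraries. Over all alternatives the adjusted p-value of *Gdnf* ran from 0.0164 to 0.701.

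The genes whose log2 CPM followed that of *Gdnf* most closely over the 9 libraries were *Xpnpep3*, *Shank1*, *Wdr46*, *Telo2* and *Slc4a1ap*, with correlation coefficients (Pearson) from 0.953 to 0.979. They are the 5 nearest of 13281 genes averaging 1 CPM or more, so the high values describe the search and carry no test. With the genotype means removed, their coefficients were 0.946 to 0.977, so they followed *Gdnf* within the genotypes. Over the 9 libraries with the genotype means left in, *Slit2* came closest to *Gdnf* of the other 8 genes of the group, at 0.835. It was followed by *Npnt* at 0.81 and *Slit3* at 0.729. *Robo2* ran opposite, at -0.78, and *Gfra1* was near 0, at 0.0252. These coefficients share the same 9 libraries and their scaling, and 361 other genes came closer than *Slit2*.

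*Gfra1* (ENSMUSG00000025089, chromosome 19, 58235604 to 58455909) encodes the co-receptor that presents GDNF to RET. It was among the more abundant of the 9 genes, at 101, 186, 133 and 165 CPM in control libraries. Its mutant values were 126.1, 105, 169, 143 and 186 CPM. The ranges were nearly the same, and both means were 145.9 CPM (SD 37.0, n = 4, and 32.4, n = 5). The 95% interval of the mutant to control fold ran from 0.752 to 1.33. RET itself, the signaling receptor, had 0 to 13 reads per library and was not tested.

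*Clcf1* (ENSMUSG00000040663, chromosome 19, 4214238 to 4223490) encodes a cytokine of the ciliary neurotrophic factor family that the UB can receive from mesenchyme. It had 99 to 282 reads per library, and its values were 5.33, 6.19, 9.99 and 6.12 CPM in control libraries. The mutant values were 12.0, 7.75, 5.15, 4.87 and 10.8 CPM. The mutant libraries spread on either side of the controls, with replicates 74 and 79 above all of them and replicates 77 and 78 below all of them. The log2 fold change was 0.24 ± 0.30 (SE, adjusted p = 0.635 in edgeR), and with limma-voom its sign was reversed, at -0.245. The partner *Cntfr*, which encodes the ligand-binding receptor chain for this cytokine, was at 164 ± 12.0 CPM in control (SD, n = 4) and at 136 ± 18.2 CPM in mutant cells (SD, n = 5), with a log2 fold change of -0.27 (adjusted p = 0.132, edgeR).

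*Gas1* (ENSMUSG00000052957, chromosome 13, 60174405 to 60177365) encodes a membrane protein that acts as a hedgehog co-receptor and is also a distant relative of the GDNF co-receptors. It was at 267, 477, 299 and 344 CPM in control libraries. Mutant libraries stood at 368, 264, 285, 317 and 355 CPM. The genotypes overlapped widely, and the highest library was control replicate 72. Its log2 fold change of -0.13 ± 0.17 (SE, adjusted p = 0.646 in edgeR) became 0.07 without that library. Of 12 hedgehog genes listed beside it, 10 were tested and edgeR called 0, against 14.8% of all genes. DESeq2 called 1 of the 10, against 21.2% of all genes. In edgeR, 1 of the 10 had an unadjusted p-value under 0.05, against 31.4% of all genes. That gene was *Ptch1* in edgeR, which encodes the hedgehog receptor, at 7.85 ± 2.99 CPM (SD, n = 4) and 12.6 ± 2.45 CPM (SD, n = 5), with a log2 fold change of 0.68 (adjusted p = 0.0921, edgeR); it was named after its value was seen.

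*Itga8* (ENSMUSG00000026768, chromosome 2, 12106632 to 12301920) encodes the integrin chain through which mesenchyme receives nephronectin. It was at 65.9, 100.3, 119 and 104 CPM in control libraries. The mutant libraries had 84.0, 89.9, 100.8, 86.4 and 125 CPM. The lowest library was a control and the highest a mutant, and the means were 97.4 ± 22.5 CPM (SD, n = 4) and 97.2 ± 16.7 CPM (SD, n = 5). The 95% interval of the fold ran from 0.775 to 1.28. *Itga8* shares 372 bp of exon with the antisense gene *E030013I19Rik*, and because library preparation was not strand-specific, some of its reads may stem from that gene. Exons of *Gfra1*, *Clcf1* and *Gas1* likewise overlap those of *Gm16277*, *AC109138.7* and *Gm48488*, by 416, 311 and 589 bp, whereas *Gdnf*, *Npnt*, *Robo2*, *Slit2* and *Slit3* overlap no other exon. *Itgb1*, its beta chain partner, was at 372 ± 59.2 CPM (SD, n = 4) and 422 ± 23.9 CPM (SD, n = 5), a log2 fold change of 0.18 (adjusted p = 0.334, edgeR).

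*Npnt* (ENSMUSG00000040998, chromosome 3, 132881745 to 132950291) encodes nephronectin, which is known as a product of the UB, yet it had 168 to 695 reads in every library of these sorted cells. It was at 20.2, 27.1, 17.1 and 12.0 CPM in control libraries. Its mutant values were 17.4, 7.44, 9.84, 9.94 and 14.1 CPM. The 2 highest libraries were controls and the 3 lowest were mutants, and the genotypes overlapped in between. Its log2 fold change was -0.70 ± 0.27 (SE, adjusted p = 0.0907 in edgeR, 2-sided exact permutation p = 0.0952). *Npnt* was called without control replicate 76, at -0.86 (adjusted p = 0.043, edgeR), and without mutant replicate 74, at -0.89 (adjusted p = 0.0258, edgeR). Of 8 UB markers, 1, the keratin gene *Krt19*, fell in mutant cells (log2 fold change -1.51, adjusted p = 0.0261, edgeR), and it was named after its value was seen. *Hoxb7* (-0.47) and *Wnt11* (-0.85) had lower fitted values and *Calb1* (2.88) a higher one, and none of these passed (adjusted p of 0.0646, 0.0701 and 0.154, edgeR). *Ret*, *Wnt9b*, *Gata3* and *Aqp2* had too few reads to be tested. The summed UB markers were also lower in mutant libraries, at 32.0 to 57.6 CPM against 49.4 to 78.2 CPM (2-sided exact permutation test, p = 0.0317). *Hoxb7* was the largest part of this sum, with means of 40.5 CPM in control and 29.3 CPM in mutant libraries. The part of UB cells in the values of *Npnt* was not tested.

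The 8 listed partners of ITGA8 and nephronectin were all tested, and 2 of 8 rose and 0 fell in edgeR, whereas DESeq2 called 3 and limma-voom 4. Of all genes, edgeR called 14.8%, DESeq2 21.2% and limma-voom 32.4%. *Frem1*, which encodes an extracellular matrix protein of the Fraser complex, rose from 48.9 ± 9.15 CPM (SD, n = 4) to 102 ± 8.85 CPM (SD, n = 5), a log2 fold change of 1.06 ± 0.14 (SE, adjusted p = 0.000766 in edgeR). Every mutant library (88.2 CPM or more) lay above every control library (58.0 CPM or less), and its call held under every alternative run. *Fn1*, the fibronectin gene, rose with a log2 fold change of 1.56 (adjusted p = 0.00966, edgeR), and was at 19.6 to 24.8 CPM in control and 33.7 to 110 CPM in mutant libraries. Its highest values were those of mutant replicates 75 and 74, the libraries with the most stromal markers, and its call was lost without a filter on low counts (adjusted p = 0.0612, edgeR). *Fras1*, another Fraser complex gene, was at 19.0 ± 2.10 CPM (SD, n = 4) and 22.1 ± 3.99 CPM (SD, n = 5), and did not pass (adjusted p = 0.395, edgeR). *Grip1*, which encodes a trafficking adaptor of Fraser proteins, had no overlap between the genotypes (4.05 to 6.54 CPM against 6.78 to 9.16 CPM), and its adjusted p-value was 0.0798 in edgeR with a log2 fold change of 0.58. It was called by DESeq2 (0.59, adjusted p = 0.0339) and limma-voom (0.71, adjusted p = 0.0147).

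*Slit2* and *Slit3* encode secreted ligands of ROBO receptors, and *Robo2* the receptor that restricts the *Gdnf* domain to the site of the bud. The sequences around the start sites of *Slit2*, *Npnt* and *Robo2* follow, because these are the members called with all libraries or with 1 library left out. They span 250 bases before to 50 bases after the RefSeq start (GRCm38.p6), 5′ to 3′ on the gene's strand, and each RefSeq start used is also the start of the gene in the count table (*Robo2* and *Npnt* have other RefSeq starts as well). Capitals mark GGGCGG, the SP1 box, on either strand, and TATAAA, the TATA box. The windows lie at chr5:47982905-47983204 on the plus strand, at chr3:132950242-132950541 on the minus strand and at chr16:74411776-74412075 on the minus strand.
Slit2: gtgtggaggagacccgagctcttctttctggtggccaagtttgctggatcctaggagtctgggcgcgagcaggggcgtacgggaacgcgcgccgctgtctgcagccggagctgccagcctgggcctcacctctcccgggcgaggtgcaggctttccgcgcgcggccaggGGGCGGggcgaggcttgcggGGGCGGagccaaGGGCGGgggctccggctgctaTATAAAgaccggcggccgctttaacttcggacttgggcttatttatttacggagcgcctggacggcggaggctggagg
Npnt: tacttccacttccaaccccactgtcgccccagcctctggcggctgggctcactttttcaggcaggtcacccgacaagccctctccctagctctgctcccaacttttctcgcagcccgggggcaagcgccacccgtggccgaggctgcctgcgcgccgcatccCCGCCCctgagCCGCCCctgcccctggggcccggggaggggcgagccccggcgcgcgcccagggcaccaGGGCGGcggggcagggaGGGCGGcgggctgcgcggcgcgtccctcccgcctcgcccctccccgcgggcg
Robo2: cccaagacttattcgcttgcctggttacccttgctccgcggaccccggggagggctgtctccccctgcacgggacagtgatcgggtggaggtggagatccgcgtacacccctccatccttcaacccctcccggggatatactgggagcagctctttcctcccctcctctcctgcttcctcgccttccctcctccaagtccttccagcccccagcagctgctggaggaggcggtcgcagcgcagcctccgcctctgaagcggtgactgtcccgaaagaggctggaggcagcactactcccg
The *Slit2* window held 3 copies of GGGCGG and 1 of TATAAA, the *Npnt* window 4 of GGGCGG, and the *Robo2* window neither. Of all 32851 windows of 300 bases, 35.7% held GGGCGG and 13.6% TATAAA on either strand. The windows held 30, 32 and 17 CG dinucleotides, against a median of 7 over all windows. TGATGNAA, a composite element of ATF4 and CEBP factors, was in none of the 3 windows and in 3.97% of all windows. These matches describe letters in the windows and not binding sites.

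*Slit2* (ENSMUSG00000031558, chromosome 5, 47983155 to 48306282) was at 77.7, 154, 110 and 58.8 CPM in control libraries. Mutant libraries stood at 68.5, 42.2, 48.1, 58.1 and 75.6 CPM. The 3 highest libraries were controls, and control replicate 76 lay inside the mutant range. The mean fell from 99.9 ± 41.5 CPM (SD, n = 4) to 58.5 ± 13.8 CPM (SD, n = 5), a log2 fold change of -0.77 ± 0.25 (SE, adjusted p = 0.0498 in edgeR), or 1.71-fold lower. The exact permutation test of its log2 CPM alone gave p = 0.0556 (2-sided), above the smallest p of 0.00794 that 4 against 5 libraries allow. This call was at the edge of the threshold. It was lost with RLE normalization (adjusted p = 0.0502) and without a filter on low counts (adjusted p = 0.132). It was also lost in edgeR without any 1 of 7 of the 9 libraries, with adjusted p-values of 0.052 to 0.178. It held without control replicate 76 and without mutant replicate 79. Without control replicate 72, the highest library, the log2 fold change was -0.49.

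*Slit3* (ENSMUSG00000056427, chromosome 11, 35121224 to 35708507) had 93 to 342 reads per library. It was at 9.80, 13.3, 11.2 and 7.81 CPM in control libraries. The mutant libraries had 8.27, 4.12, 6.12, 8.46 and 7.98 CPM. As for *Slit2*, the 3 highest libraries were controls and control replicate 76 lay among the mutants. The log2 fold change was -0.59 ± 0.24 (SE, adjusted p = 0.115 in edgeR). Of the 2 transcripts together, *Slit2* made up 87.2 ± 2.14% (SD, n = 4) per length in control and 86.5 ± 1.83% (SD, n = 5) in mutant cells, which differed by less than the libraries did among themselves (p = 0.571, 2-sided exact permutation test).

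*Slit1*, the remaining SLIT ligand gene and a listed partner, fell from 13.1 ± 2.49 CPM (SD, n = 4) to 6.74 ± 1.27 CPM (SD, n = 5), a log2 fold change of -0.96 ± 0.20 (SE, adjusted p = 0.00952 in edgeR). It was at 12.1, 15.5, 14.7 and 10.1 CPM in control libraries, and at 8.40, 5.18, 5.82, 7.33 and 6.99 CPM in mutant libraries. The genotypes were fully separated, with all 5 mutant values below the 4 controls (p = 0.00794 by exact permutation, 2-sided), and its call held under every alternative run. All 3 SLIT genes had lower fitted values, as did 50.8% of all genes tested. *Slit1* and, at the edge of the threshold, *Slit2* passed the test, which called 7.02% of all genes lower. The *Slit2* call was lost in 9 of 16 alternatives and the *Slit1* call in 0.

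*Robo2* (ENSMUSG00000052516, chromosome 16, 73892306 to 74411825) was at 211, 223, 219 and 428 CPM in control libraries. Its mutant values were 323, 365, 447, 439 and 410 CPM. Of the controls, 3 lay closely together below every mutant library, and control replicate 76 lay inside the mutant range. The log2 fold change was 0.55 ± 0.20 (SE, adjusted p = 0.0771 in edgeR, 2-sided exact permutation p = 0.0556). Without control replicate 76 it was 0.88 (adjusted p = 0.0031, edgeR), and without mutant replicate 74 it was 0.62 (adjusted p = 0.0447, edgeR). DESeq2 called *Robo2* with all libraries, at 0.57 (adjusted p = 0.0347). *Robo1*, a related receptor gene, was at 32.6 ± 5.84 CPM (SD, n = 4) and 28.3 ± 4.65 CPM (SD, n = 5), with a log2 fold change of -0.20 (adjusted p = 0.439, edgeR). *Robo3* and *Robo4* had 0 reads in every control library and at most 3 and 11 reads in mutant libraries.

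Of the SLIT and ROBO partners, 5 of 7 were tested, of which 2 rose and 1, *Slit1*, fell, against 7.82% and 7.02% of all genes. The 2 that rose encode SLIT-ROBO GTPase-activating proteins, which relay ROBO signals to the actin cytoskeleton. *Srgap1* was at 28.1 to 33.1 CPM in control and rose to between 39.2 and 63.2 CPM in mutant libraries, with a log2 fold change of 0.68 (adjusted p = 0.013, edgeR). *Srgap3* was at 1.65 to 2.69 CPM in control and rose to between 3.77 and 7.44 CPM, a log2 fold change of 1.28 (adjusted p = 0.00902, edgeR), which rests on 39 to 168 reads per library. Its highest values were those of mutant replicates 75 (7.44 CPM) and 74 (5.84 CPM), the libraries with the most stromal markers, and the part of those cells was not tested. The calls of *Srgap1* and *Srgap3* held under every alternative run.

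**Figure D2:**
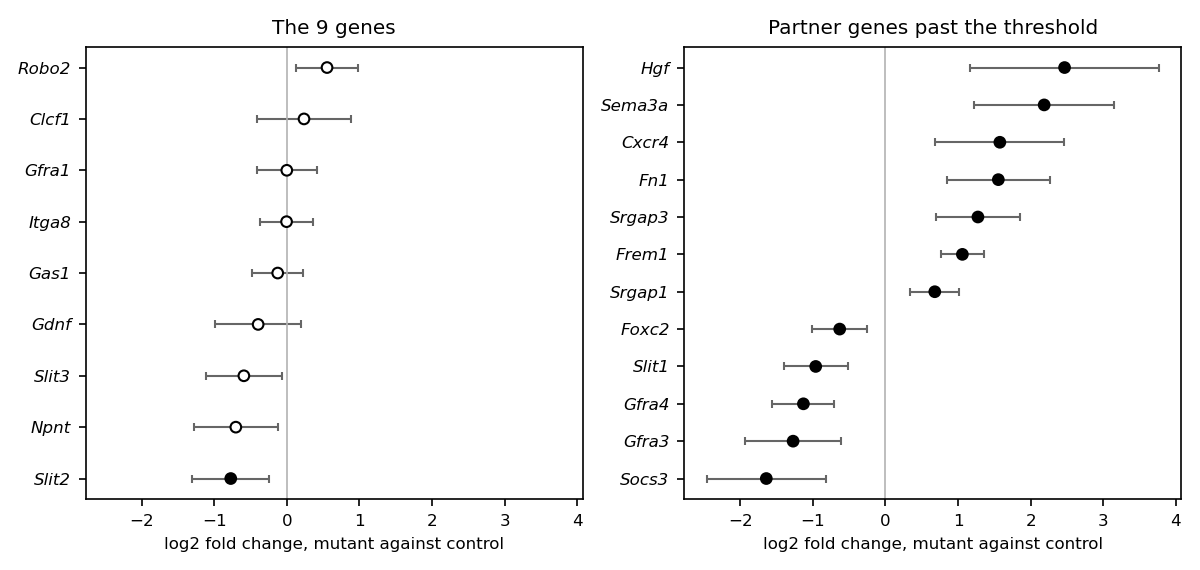
Log2 fold changes of mutant against control cells (x axis) with 95% intervals from the edgeR fit for the 9 genes (left) and for the 12 partner genes past the threshold (right), with filled points for adjusted p-values under 0.05. Only *Slit2* is filled on the left, at -0.77, whereas 7 partner genes lie above 0 and 5 below.

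The partner lists held 71 genes in all, of which 62 were tested, 7 rose and 5 fell. This is 19.4% of those tested, against 14.8% of all genes, and their median log2 fold change was 0.17. Among the partners named here, *Gfra4*, *Wnt11*, *Stat3*, *Fras1*, *Fn1*, *Srgap1*, *Srgap3*, *Fgf10* and *Hgf* share 72 to 484 bp of exon with another gene, so some of their reads may belong there. In the GDNF receptor and ligand family, 5 of 7 genes were tested, 2 fell and 0 rose, against 7.02% and 7.82% of all genes. Fitted values were lower for 3 of the 5 and higher for 2. *Gfra4*, which encodes the co-receptor for persephin, fell from 22.7 ± 2.05 CPM (SD, n = 4) to 10.4 ± 2.65 CPM (SD, n = 5), a log2 fold change of -1.13 ± 0.20 (SE, adjusted p = 0.00377 in edgeR), with no overlap between genotypes. *Gfra3*, which encodes the co-receptor for artemin, fell from 6.41 ± 2.02 CPM (SD, n = 4) to 2.66 ± 0.952 CPM (SD, n = 5), a log2 fold change of -1.27 (adjusted p = 0.0165, edgeR). The *Gfra3* call was lost without control replicate 71 (-1.17, adjusted p = 0.053, edgeR) or 72 (-1.11, adjusted p = 0.0587, edgeR). *Gfra1* did not pass, and whether the co-receptor genes differ among themselves was not tested.

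Of the 14 genes that act upstream of *Gdnf*, 13 were tested, 1 fell and 0 rose in edgeR, which called 14.8% of all genes. Unadjusted p-values were under 0.05 for 5 of the 13, 2 of them with higher fitted values, against 31.4% of all genes. DESeq2 called 3 of the 13 in either direction, against 21.2% of all genes. *Foxc2*, which encodes a forkhead factor of the mesenchyme, fell from 75.2 ± 14.1 CPM (SD, n = 4) to 48.6 ± 11.1 CPM (SD, n = 5), a log2 fold change of -0.63 (adjusted p = 0.0307, edgeR). This call was lost in edgeR without control replicates 72, 73 or 76 or mutant replicates 75, 77 or 78, each left out alone, with adjusted p-values of 0.0509 to 0.0928. *Six2*, which keeps progenitors undifferentiated, was at 571 ± 53.4 CPM (SD, n = 4) and 704 ± 102 CPM (SD, n = 5), with a log2 fold change of 0.30 (adjusted p = 0.131, edgeR). *Six2* was called higher in 2 of 16 alternatives, by limma-voom (adjusted p = 0.0349) and in edgeR without mutant replicate 75 (adjusted p = 0.0462). The cells were sorted for eGFP driven by the *Six2* promoter, and the part of the sort in the *Six2* level was not tested. *Eya1*, which encodes a transcriptional partner of SIX2, was at 329 ± 55.1 CPM (SD, n = 4) and 354 ± 33.9 CPM (SD, n = 5), with a log2 fold change of 0.10 (adjusted p = 0.625, edgeR).

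Among 8 genes that RET raises in bud tips, *Cxcr4* rose and 0 fell in edgeR, whereas DESeq2 called 2. Of all genes, edgeR called 14.8% and DESeq2 21.2%. The cells were sorted progenitors with 0 to 13 *Ret* reads per library, so these 8 genes do not measure RET activity in the bud. *Cxcr4*, a chemokine receptor gene that blood cells also express, was at 4.24 to 13.8 CPM in control and 8.14 to 40.5 CPM in mutant libraries, with a log2 fold change of 1.58 (adjusted p = 0.0243, edgeR), and mutant replicate 77, with the highest value, also had the most myeloid markers (92.8 CPM). The *Cxcr4* call was lost in edgeR without control replicates 71, 72 or 73 or mutant replicate 78, each left out alone (adjusted p of 0.0529 to 0.0753), and without a filter on low counts (adjusted p = 0.117). *Wnt11*, the RET target that feeds back on *Gdnf*, was at 12.9 ± 5.05 CPM (SD, n = 4) and 7.17 ± 2.36 CPM (SD, n = 5), with a log2 fold change of -0.85 (adjusted p = 0.0701, edgeR). *Wnt11* was called lower by DESeq2 (-0.84, adjusted p = 0.0306) and limma-voom (-1.21, adjusted p = 0.00986), and in edgeR without control replicate 76 (-1.02, adjusted p = 0.0379) or mutant replicate 74 (-0.97, adjusted p = 0.0391).

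Among 8 partners of CLCF1, of which 6 were tested, *Socs3* fell and 0 rose in edgeR, whereas DESeq2, limma-voom and edgeR with RLE normalization each called 2. Of all genes, edgeR called 14.8%, and those settings called 21.2%, 32.4% and 14.9%. *Socs3*, a feedback inhibitor of cytokine signaling, fell from 110 ± 46.3 CPM (SD, n = 4) to 35.4 ± 17.5 CPM (SD, n = 5), a log2 fold change of -1.64 (adjusted p = 0.0163, edgeR). It was not called without control replicate 72 (-1.42, adjusted p = 0.0596, edgeR) or without a filter on low counts (adjusted p = 0.0794, edgeR). *Stat3*, which encodes a transcription factor of cytokine signaling, was at 114 ± 16.1 CPM (SD, n = 4) and 164 ± 39.1 CPM (SD, n = 5), with a log2 fold change of 0.53 (adjusted p = 0.0528, edgeR), and was named after its value was seen.

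Among 7 other secreted signals to the bud, 2 rose and 0 fell in edgeR, against 7.82% and 7.02% of all genes. *Hgf*, the hepatocyte growth factor gene, had 3 to 29 reads in control and 26 to 194 reads in mutant libraries, with a log2 fold change of 2.47 (adjusted p = 0.0174, edgeR). *Sema3a*, which encodes a semaphorin that restrains branching, was at 0.337 to 2.03 CPM in control and rose to between 2.55 and 6.86 CPM, a log2 fold change of 2.19 (adjusted p = 0.00767, edgeR). Both were highest in mutant replicate 75, which also had the most stromal markers, and the part of those cells in these rises was not tested. Without that library, *Hgf* had a log2 fold change of 1.98 (adjusted p = 0.0399, edgeR), and without control replicate 71 its call was lost (adjusted p = 0.0587, edgeR). *Fgf10*, which sustains bud branching beside GDNF, was at 132 ± 23.6 CPM (SD, n = 4) and 170 ± 37.3 CPM (SD, n = 5), with a log2 fold change of 0.36 (adjusted p = 0.177, edgeR). It was called higher in 3 of 16 alternatives. These were limma-voom (0.46, adjusted p = 0.0231), edgeR without mutant replicate 74 (0.47, adjusted p = 0.0379) and edgeR without that library and control replicate 76 (0.55, adjusted p = 0.0255).

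Compared per kilobase of gene model, the levels of the 9 genes spanned 60.0-fold in control cells. *Gas1* was highest at 117 ± 31.2 CPM per kilobase (SD, n = 4), above every other gene in every control library. *Robo2* (33.3) and *Gfra1* (31.4) followed and overlapped each other, as did *Itga8* (16.8) with *Slit2* (14.6), *Gdnf* (5.09) with *Npnt* (4.13), and *Slit3* (2.01) with *Clcf1* (1.95). Between genes next to each other in this order, the control ranges did not overlap from *Gas1* to *Robo2*, *Gfra1* to *Itga8*, *Slit2* to *Gdnf* and *Npnt* to *Slit3*. Ranges of some genes farther apart did overlap, as for *Slit2* (up to 22.4) with *Gfra1* (from 21.8) and *Clcf1* (up to 2.81) with *Gdnf* (from 2.63) and *Npnt* (from 2.59). In mutant cells *Slit2* was at 8.54 ± 2.02 CPM per kilobase (SD, n = 5), and its highest library (11.0) was below the lowest of *Itga8* (14.5). The ligand *Gdnf* was thus at a lower level than its co-receptor *Gfra1* in either genotype, at 3.87 against 31.4 CPM per kilobase in mutant cells.

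**Figure D3:**
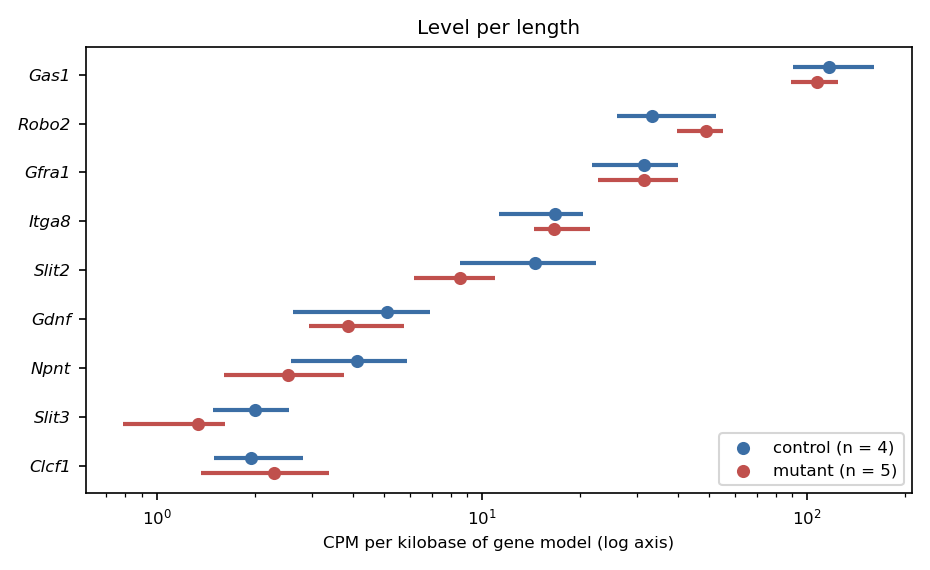
Level of each gene per kilobase of gene model (x axis, CPM per kilobase, log scale) in control (blue, n = 4) and mutant (red, n = 5) cells, with the mean as a point and the lowest to highest library as a line. *Gas1* is highest at 117 in control, and *Slit3* and *Clcf1* are lowest, near 2.01 and 1.95.

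The calls moved with the libraries and tools used. The number of the 9 genes called in edgeR was 1 with all libraries and ran from 0 to 3 with 1 library left out. It was 3 without control replicate 76 (*Npnt*, *Robo2* and *Slit2*), 2 without mutant replicate 74 (*Npnt* and *Robo2*), and 4 without both (*Gdnf*, *Npnt*, *Robo2* and *Slit2*). In these settings 14.9%, 21.2% and 23.7% of all genes were called. It was 0 without control replicates 71, 72 or 73 or mutant replicates 75, 77 or 78, and 1 without mutant replicate 79. For *Gdnf*, *Npnt* and *Robo2*, control replicate 76 and mutant replicate 74 were the libraries of their genotype nearest the other genotype. Leaving them out therefore widens the difference of these genes by construction. With all libraries DESeq2 called 2 of the 9 genes, where it called 21.2% of all genes, and limma-voom called 4, where it called 32.4%. The directions of *Gdnf*, *Npnt*, *Slit2*, *Slit3* and *Robo2* were kept under all 16 alternatives, whereas those of *Gfra1*, *Itga8*, *Gas1* and *Clcf1* turned in at least 1 alternative.

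**Figure D4:**
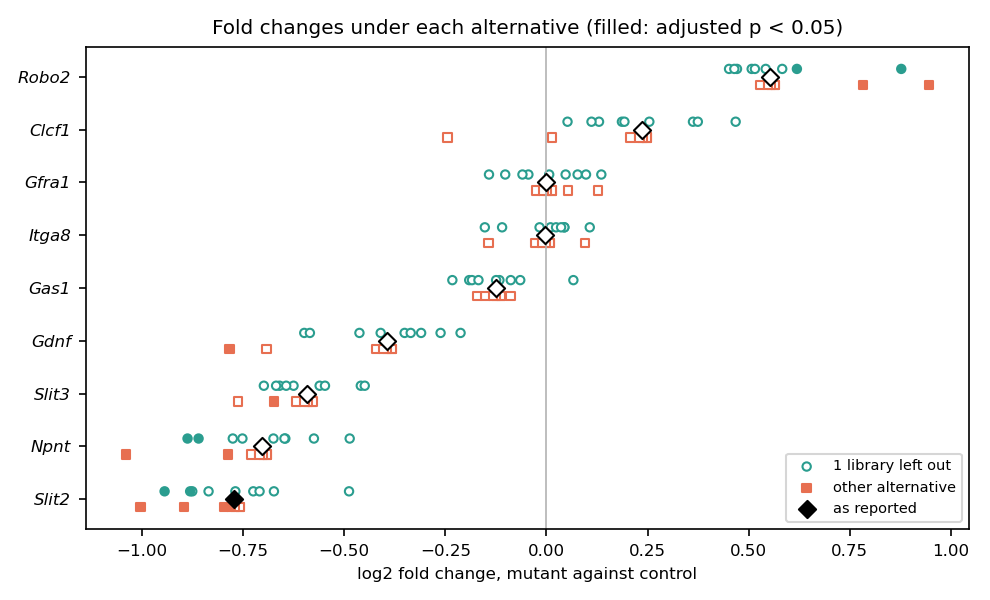
Log2 fold change of each gene (x axis) as reported (diamonds), with 1 library left out (circles) and under the other alternatives (squares), filled where the adjusted p-value was under 0.05. *Slit2*, *Npnt*, *Slit3* and *Gdnf* stay below 0 and *Robo2* above 0 throughout, and *Robo2* moves farthest without control replicate 76, to 0.88, and to 0.95 when mutant replicate 74 is left out too.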

How the data were processed

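RNA was amplified from sorted cells with a low-input kit, selected for poly(A) and made into libraries without strand, per the labels. The submitters' processing notes name STAR, DESeq2 and build mm10; the counter and annotation are not given in the sources used here. The authors deposited read counts per gene, with gene length. The 9 deposited FPKM columns and the columns of the authors' own comparison (normalized means, log2 fold change, p-values) were not used.

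Counts were analyzed in R 4.3.3 with edgeR 4.0.16 (filterByExpr, TMM, robust quasi-likelihood test, Benjamini-Hochberg adjustment over all genes tested, threshold 0.05), checked on simulated data. Standard errors are the log2 fold change over the root of F. CPM used TMM library sizes, and 0.5 was added before log2. For single values, all ways of assigning the 9 libraries were enumerated in a 2-sided exact permutation test. Alternatives were DESeq2 1.42.0, limma-voom (limma 3.58.1) with quality weights, RLE and upper-quartile normalization, other filters, other pseudocounts, and libraries left out. Named genes were the 9 members, fixed partners, partners past the threshold and the 5 genes most like *Gdnf*. Members and lists were chosen with earlier results of these data known. Promoters are from RefSeq; all members but *Clcf1* had an entry. Exon overlaps are from GENCODE M21 (GRCm38).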

Additional observations from a re-analysis of the deposited data

Results flagged for a closer look

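Control replicate 76 was far from the other controls for *Robo2*, at 428 CPM against 211 to 223 CPM, and for the summed progenitor markers, at 2510 CPM against 2080 to 2130 CPM. Its gap to the nearest control was 0.946 and 0.879 of the range of the 4 controls, above Dixon's critical value for 4 samples. These are 2 results of 82 groups of libraries examined, of which chance alone would mark about 4.1.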

How the results depend on the processing

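Leaving out 1 library gave between 1046 and 3136 genes called, limma-voom 4858, and leaving out control replicate 76 and mutant replicate 74 together 3583. Of the 9 members, 0 to 3 were called with 1 library left out, 2 with DESeq2 (21.2% of all genes), 0 with RLE normalization (14.9%), 0 without a filter on low counts (7.35%), 4 with limma-voom (32.4%) and 4 without those 2 libraries (23.7%). Of the 62 partner genes tested, limma-voom called 22, against the same 32.4% of all genes.

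Slit2 had log2 fold changes of -0.76 with RLE and -0.77 without the filter, and -0.94 to -0.49 with 1 library left out. Npnt was at -0.79 with limma-voom, -1.04 without the 2 libraries and -0.89 to -0.49 with 1 left out. Robo2 was at 0.57 with DESeq2, 0.78 with limma-voom, 0.95 without the 2 libraries and 0.45 to 0.88 with 1 left out. Gdnf was at -0.78 without the 2 libraries, and Slit3 at -0.67 with limma-voom. Gfra1 was at 0.0134 with DESeq2, 0.0133 with RLE, 0.00069 without the filter, 0.0536 with limma-voom, 0.13 without the 2 libraries and -0.14 to 0.14 with 1 left out. Itga8 was at 0.00937 with DESeq2, 0.00936 with RLE, 0.095 without the 2 libraries and -0.15 to 0.11 with 1 left out. Clcf1 was at -0.245 with limma-voom, and Gas1 at -0.23 to 0.0665 and Eya1 at -0.00563 to 0.18 with 1 library left out. The difference in the share of Slit2 was -1.42 to 0.12 percentage points with 1 library left out. The cause of these changes was not tested. Pseudocounts of 0.1 and 1 kept every member's direction and permutation p-value above 0.05. No paired analysis was possible because the sources used here give no litter or batch by which libraries could be paired.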
